A study of Mus musculus with 33 samples.

Results

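Monocytes that came from an inflamed mouse and entered a healthy small intestine were compared with monocytes that came from a healthy mouse and entered an inflamed small intestine. Members were chosen by sample label: 4 libraries of cells from manipulated donors in non-manipulated recipients (manipulated-donor cells) and 5 libraries of cells from non-manipulated donors in manipulated recipients (manipulated-recipient cells), 9 of the 33 libraries of the series. A further 4 libraries, from non-manipulated donors in non-manipulated recipients (non-manipulated controls), serve as reference points. Of 67 panel genes, the 57 with a value in every library were analysed.

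All mice were of C57BL/6 background. Per the methods, donors for such transfers were WT or CX3CR1gfp/+ mice, and the titles of the manipulated-donor libraries name a WT donor. Recipients were, per the methods, CCR2-/- mice, which have few circulating monocytes of their own. Manipulation is a surgical handling of the small intestine that inflames the gut wall, and recipients underwent it 1 day before transfer. Per the methods, these mice were also anaesthetised and given the analgesic Novalgin, whereas non-manipulated mice had no surgery. When the donors had their surgery is not given in the sources used here. Purified bone marrow monocytes were injected into the blood and recovered 1 day later by their congenic mark as CD11b+CD11c lo/int CD64+ cells, so the gate itself uses the products of Itgax (CD11c) and Fcgr1 (CD64). Each library held 100 sorted cells. Both the donor and the recipient differ between the groups, so within this comparison the effect of a manipulated donor and that of a non-manipulated recipient cannot be told apart.

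Ly6C-high monocytes continuously replenish intestinal macrophages. In the healthy gut they lose Ly6C, gain MHCII and CX3CR1 and acquire a tolerant state that includes production of the cytokine IL-10. In an inflamed gut wall, incoming monocytes instead produce interleukins such as IL-1 and IL-6 and chemokines such as CCL2, CCL7 and CXCL1, which call in further monocytes and neutrophils. Many of these genes are targets of NF-kB, a transcription factor family that is activated through Toll-like receptors and cytokine receptors.

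Transcripts were counted as barcodes by nCounter hybridisation after pre-amplification. A scaled count is the barcode count divided by a factor from Actb, Gapdh and Rpl19, and a log2 level is log2 of the scaled count plus 1. Total counts lay between 653842 and 1452813 in manipulated-donor libraries, between 925869 and 1574105 in manipulated-recipient libraries and between 1283497 and 1466732 in non-manipulated controls. In each of these libraries 55 to 57 of the 57 genes exceeded background. Fcgr1 was high in every library, with scaled counts of 16403, 49507, 26736 and 23408 in manipulated-donor cells, against 15606 to 45860 in manipulated-recipient cells. Of the marker lists for other cells the panel measured 1 of 5 dendritic cell markers (Ccr7) and 0 of 5 neutrophil, 0 of 4 lymphocyte and 0 of 4 epithelial and stromal markers, so admixture of those cells was not tested. Ccr7 lay between 1382 and 7336 in manipulated-donor cells and between 1129 and 4017 in manipulated-recipient cells.

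Library 1 of the manipulated-donor group stood apart from the other 3 of its group. Over the 57 genes its log2 levels lay on average 0.57 from the mean of the manipulated-recipient libraries and 1.35 from that of the non-manipulated controls. For libraries 2, 3 and 4 the order was the opposite, at 1.64, 1.47 and 1.43 from the manipulated-recipient mean and 0.81, 0.68 and 0.69 from the control mean. The manipulated-recipient libraries themselves lay 0.71 to 1.20 from the mean of the others of their group. Library 1 had a total count of 1452813, the highest of its group, and a positive control signal of 405, the lowest of its group (427 to 668 in the others). The part of these values in its profile was not tested. By these distances library 1 goes against its label, which was kept, so each manipulated-donor mean and SD includes it and the values without it are given where they differ. Library 1 was singled out by these same values, so its omission tends to widen the difference between the groups. Values and p-values without it are therefore descriptive. In the manipulated-recipient group, libraries 3 and 4 stood apart from the other 3. They had positive control signals of 267 and 247, against 459 to 555, and did not overlap with them in 26 of the 57 genes.

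Of the 57 genes, 5 were lower in manipulated-donor cells than in manipulated-recipient cells and 0 were higher, which is 8.77% of the genes tested (limma, Benjamini-Hochberg adjusted p under 0.05). The 5 genes were the chemokine genes Ccl7, Cxcl1 and Ccl2, the cytokine gene Il6 and Arg1, the gene of arginase 1, which breaks down arginine. At an unadjusted p under 0.05, 9 genes were lower and 6 higher. Without library 1, 8 genes were lower and 0 higher (14% of the genes tested), namely the same 5 together with Il1a, Il23a and Trem1. The median log2 difference over all 57 genes was -0.18. Because the cells were measured in bulk, fewer expressing cells and less RNA per cell cannot be told apart.

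**Figure D1:**
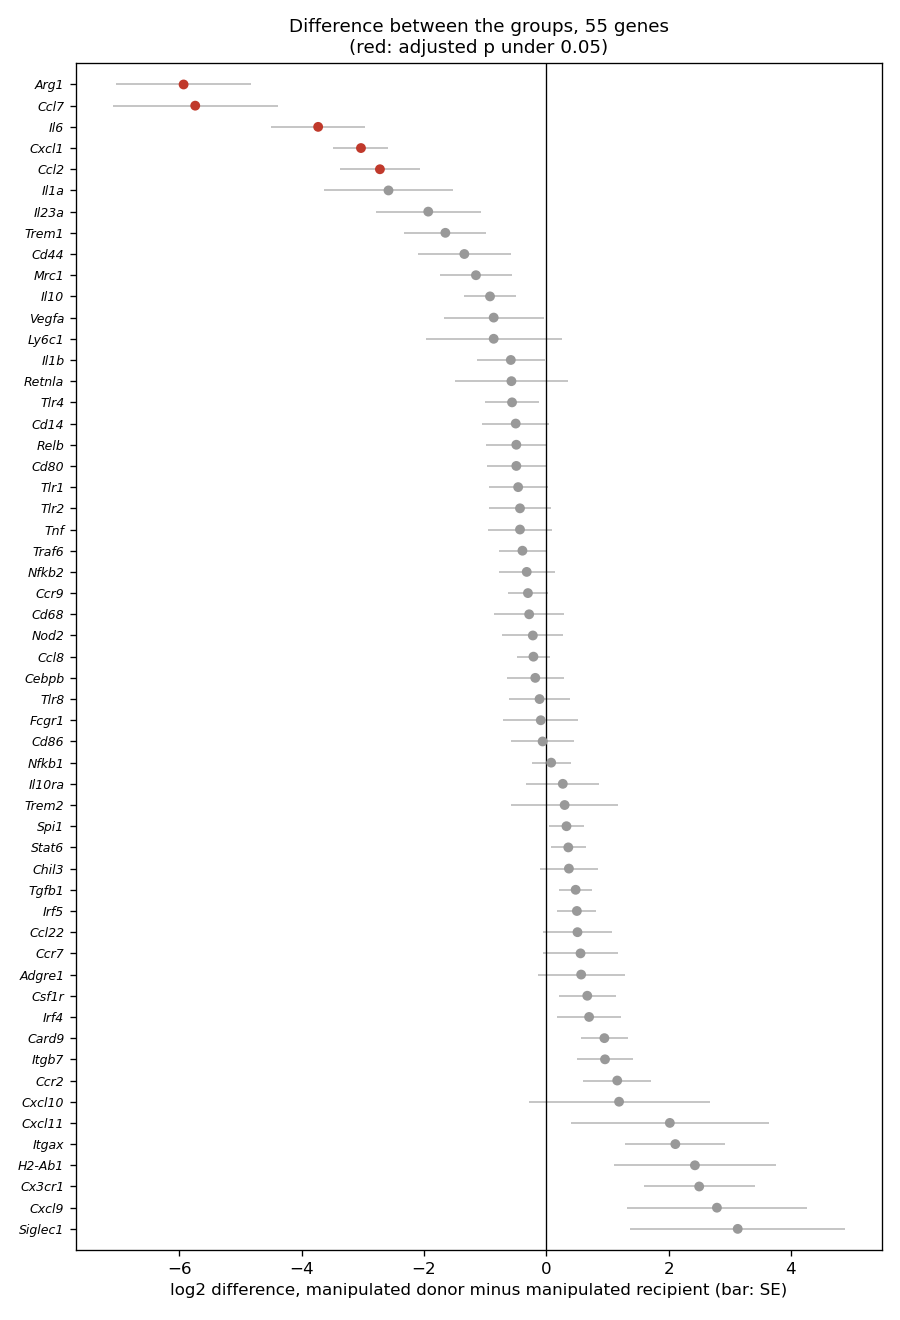
Log2 difference between manipulated-donor and manipulated-recipient cells (x axis, manipulated donor minus manipulated recipient) for 55 of the 57 genes (y axis). Points are estimates of the fit, bars are standard errors, and red marks the 5 genes with an adjusted p under 0.05, all of which are lower in manipulated-donor cells.

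Cxcl1 and Il6 have an entry in the RefSeq promoter table (GRCm38.p6), whereas Arg1, Ccl2 and Ccl7 have none there. The 150 bases before each start are shown because these genes moved in the same direction, with matches to the NF-kB consensus (the kappa-B motif, searched on both strands) in capitals.
Cxcl1, chr5:90891095-90891244, plus strand: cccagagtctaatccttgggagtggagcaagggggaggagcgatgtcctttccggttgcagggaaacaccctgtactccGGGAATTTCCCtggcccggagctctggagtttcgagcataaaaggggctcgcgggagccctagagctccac
Il6, chr5:30012964-30013113, plus strand: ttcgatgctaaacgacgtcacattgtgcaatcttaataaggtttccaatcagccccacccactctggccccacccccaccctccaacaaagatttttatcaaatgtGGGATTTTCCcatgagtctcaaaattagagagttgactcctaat
The Cxcl1 stretch held 2 matches, 1 on each strand and overlapping, the first of them at bases -71 to -62 from the start. The Il6 stretch held 1 match, at bases -44 to -35. A match was present in the 250 bases before the start in 7.25% of 32851 promoters. It describes the letters only.

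CCL7 and CCL2 are ligands of the monocyte receptor CCR2, and CXCL1 attracts neutrophils. Ccl7 had scaled counts of 7472, 82.7, 157 and 126 in manipulated-donor libraries 1 to 4, against 23598, 6258, 31004, 30511 and 13011 in manipulated-recipient libraries 1 to 5. Only library 1 lay within the manipulated-recipient range, and the other 3 were at most 157. The mean log2 level was 8.39 ± 3.01 in manipulated-donor cells and 14.12 ± 0.99 in manipulated-recipient cells (SD, n = 4 and 5), a log2 difference of -5.74 ± 1.35 (SE) or 53.3-fold lower (limma adjusted p = 0.00373). Without library 1 it was -7.23 (adjusted p = 0.000123).

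Cxcl1 had scaled counts of 1762, 223, 256 and 323 in manipulated-donor libraries, against 2864, 2141, 6484, 4439 and 2860 in manipulated-recipient libraries. The groups did not overlap, although library 1 was close to the lowest manipulated-recipient library. The log2 difference was -3.03 ± 0.45 (SE), 8.16-fold lower, with a limma adjusted p of 3.07e-05, the smallest of the comparison, and -3.71 or 13.1-fold lower without library 1 (adjusted p = 1.31e-08). Ccl2 had scaled counts of 13789, 1631, 4477 and 2711 in manipulated-donor libraries, against 22828, 21730, 31399, 33209 and 26500 in manipulated-recipient libraries. Again the groups did not overlap and library 1 was nearest to the manipulated-recipient cells. Ccl2 was 6.58-fold lower (log2 difference -2.72 ± 0.66, limma adjusted p = 0.00413), and 9.89-fold lower without library 1 (-3.31, adjusted p = 0.000518).

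The other chemokine genes did not pass the test. CXCL9 and CXCL10 are induced by interferon and attract T cells, and Cxcl9 had scaled counts of 202, 424, 1434 and 1544 in manipulated-donor libraries, against 162, 59.6, 95.4, 104 and 79.7 in manipulated-recipient libraries. The groups did not overlap, with the higher values in manipulated-donor cells, but the log2 difference of 2.79 ± 1.47 had a limma adjusted p of 0.235 (3.36 and 0.148 without library 1). With only the 2 groups in the fit the limma adjusted p was 0.0154, and DESeq2 gave 3.35 (adjusted p = 0.0167). Cxcl9 did not pass with only small intestine libraries in the fit, with library weights or with edgeR. For Cxcl10 the difference was 1.19 ± 1.48 (adjusted p = 0.573) and for Ccl22, whose product attracts regulatory T cells, 0.51 ± 0.57 (adjusted p = 0.558). Of the 7 measured genes of the chemokine list 3 were lower, 0 higher and 4 not called, against 5 lower of all 57 genes (8.77%). Their median log2 difference was -0.21, against -0.18 over all genes. Cxcl11, a related chemokine gene that the list lacked, differed by 2.02 ± 1.62 (adjusted p = 0.483), and with it the median over 8 genes was 0.15.

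Il6, which encodes a cytokine of the acute phase, had scaled counts of 2102, 41.4, 59.1 and 65.5 in manipulated-donor libraries, against 3444, 1584, 553, 1480 and 4552 in manipulated-recipient libraries. Library 1 lay within the manipulated-recipient range, libraries 2 to 4 lay below it, and the count of library 2 (31) was under its background of 46.0. The log2 difference was -3.73 ± 0.77, 13.3-fold lower (limma adjusted p = 0.00109), and without library 1 it was -5.05 (adjusted p = 2.85e-08). Il1a, an alarmin that also acts when released from dying cells, had scaled counts of 133615, 5180, 27157 and 20238 in manipulated-donor libraries, against 130773, 169878, 129916, 152976 and 161435 in manipulated-recipient libraries. Its difference of -2.58 ± 1.06 did not pass the test (adjusted p = 0.119), whereas without library 1 it was -3.39 with an adjusted p of 0.041. With library 1 kept, its limma adjusted p was 0.0194 with only small intestine libraries in the fit and 0.0149 with library weights. Il1a did not pass with only the 2 groups in the fit, with edgeR or with DESeq2. Il23a, the specific subunit of IL-23, had scaled counts of 1838, 72.1, 400 and 190 in manipulated-donor libraries, against 620, 1361, 2265, 7490 and 179 in manipulated-recipient libraries. These ranges overlapped, and the difference was -1.93 ± 0.86 with all libraries (adjusted p = 0.161) and -2.77 without library 1 (adjusted p = 0.032). Without manipulated-recipient libraries 3 and 4 it was -0.75 (adjusted p = 0.623).

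Tnf, the gene of a cytokine that drives acute inflammation, did not pass the test. It had scaled counts of 80211, 56354, 59978 and 91476 in manipulated-donor libraries, against 71767, 131767, 113868, 112636 and 63640 in manipulated-recipient libraries. The ranges overlapped and library 1 did not stand apart, with a log2 difference of -0.43 ± 0.53 (limma adjusted p = 0.573). Il1b was high throughout, at 53070 to 117489 in manipulated-donor cells and 87851 to 125231 in manipulated-recipient cells (-0.58 ± 0.56, adjusted p = 0.558). Of the 5 measured pro-inflammatory cytokine genes 1 was lower, 0 higher and 4 not called, against 5 lower of all 57 genes (8.77%). Their median difference was -1.93, against -0.18 over all genes.

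**Figure D2:**
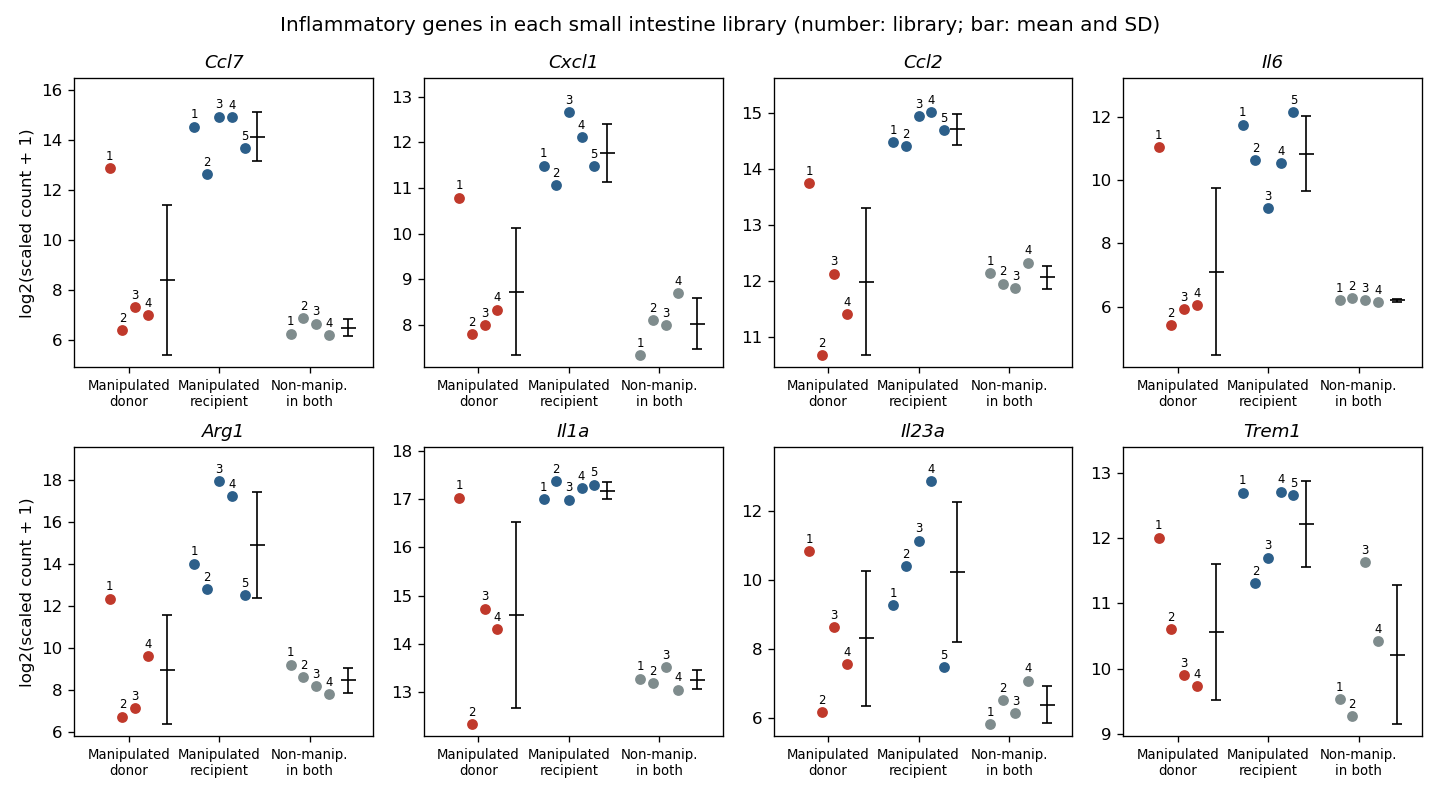
Log2 level (y axis, log2 of the scaled count plus 1) of 8 genes in each small intestine library, for manipulated-donor cells (red, n = 4), manipulated-recipient cells (blue, n = 5) and non-manipulated controls (grey, n = 4). Points are libraries with their number, bars are mean and SD, and in each panel red library 1 lies above red libraries 2 to 4.

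With all libraries Arg1 showed the greatest difference in size of the 57 genes, whereas Ccl7 did without manipulated-donor library 1 and Siglec1 without manipulated-recipient libraries 3 and 4. Arg1 had scaled counts of 5184, 105, 141 and 784 in manipulated-donor libraries, against 16444, 7111, 251028, 152874 and 5779 in manipulated-recipient libraries. The groups did not overlap, yet library 1 was only slightly under the lowest manipulated-recipient library, and libraries 3 and 4 of the manipulated-recipient group were far above the rest. The log2 difference was -5.93 ± 1.11, 61.1-fold lower (limma adjusted p = 0.000454). It was -7.06, 133-fold lower, without manipulated-donor library 1 (adjusted p = 2.02e-05), and -4.14 without those 2 manipulated-recipient libraries (adjusted p = 0.00992). Other regulatory genes did not pass the test. Il10 had scaled counts of 10579, 6595, 12826 and 3921 in manipulated-donor libraries, against 14555, 20184, 16746, 11187 and 12095 in manipulated-recipient libraries, with overlap through library 3 and a difference of -0.92 ± 0.42 (adjusted p = 0.161). Mrc1, which encodes the mannose receptor CD206, differed by -1.15 ± 0.59 (adjusted p = 0.217), and without manipulated-recipient libraries 3 and 4 by 0.10. Vegfa, an angiogenic factor, differed by -0.86 ± 0.82 (adjusted p = 0.558), and by 0.29 without those libraries. Of 9 measured genes of the regulatory list 1 was lower and 8 were not called, against 5 lower of all 57 genes (8.77%). Their median difference was -0.57, against -0.18 over all genes.

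Of the 9 measured genes of the pattern recognition list 0 passed the test, against 5 of all 57 genes (8.77%). Their median difference was -0.43, against -0.18 over all genes. Tlr8, a Toll-like receptor gene that the list lacked, differed by -0.11 ± 0.50 (limma adjusted p = 0.853). Trem1, an amplifier of Toll-like receptor signals, had scaled counts of 4111, 1559, 955 and 847 in manipulated-donor libraries, against 6619, 2532, 3325, 6692 and 6435 in manipulated-recipient libraries. Only library 1 reached the manipulated-recipient range, and the difference was -1.65 ± 0.67 (limma adjusted p = 0.119) or, without library 1, -2.13 (adjusted p = 0.041). With library 1 kept and library weights in the fit it was -2.16 (limma adjusted p = 0.0108). Trem1 did not pass with only small intestine libraries in the fit, with edgeR or with DESeq2. Card9, an adaptor of C-type lectin receptors, did not overlap between groups, with 17307 to 34790 in manipulated-donor cells and 9346 to 16236 in manipulated-recipient cells, but the difference of 0.95 ± 0.38 did not pass (adjusted p = 0.119). Cd14, the co-receptor for lipopolysaccharide, was at 55777 to 111196 in manipulated-donor cells and 102154 to 167416 in manipulated-recipient cells (-0.50 ± 0.55, adjusted p = 0.558). Tlr4, the receptor that CD14 serves, differed by -0.56 ± 0.44 (adjusted p = 0.483), and by -1.23 (adjusted p = 0.046) without manipulated-recipient libraries 3 and 4.

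Of the genes of homing and macrophage maturation, 0 passed the test in the fit over all libraries. Cx3cr1, the fractalkine receptor that marks gut macrophages, had scaled counts of 682, 532, 1056 and 627 in manipulated-donor libraries, against 220, 58.3, 157, 168 and 83.5 in manipulated-recipient libraries. The groups did not overlap and library 1 lay among the others of its group. The log2 difference was 2.50 ± 0.91 with a limma adjusted p of 0.104, while the adjusted p was 0.0135 when only the 2 groups entered the fit and 0.00573 when only small intestine libraries did. Titles of the manipulated-recipient libraries name no donor genotype. Any part of CX3CR1gfp/+ donors in this difference was not tested. Itgax, which the sorting gate used, had scaled counts of 1912, 3522, 2923 and 1567 in manipulated-donor libraries, against 445, 92.9, 1410, 2927 and 278 in manipulated-recipient libraries (2.11 ± 0.82, adjusted p = 0.119). The overlap came from manipulated-recipient library 4, and without libraries 3 and 4 the difference was 3.38 (adjusted p = 0.00516).

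Ccr2, the receptor through which monocytes leave bone marrow, was at 19833, 27332, 74011 and 70008 in manipulated-donor libraries, against 21635, 6004, 47431, 42745 and 7788 in manipulated-recipient libraries. The ranges overlapped through manipulated-donor libraries 1 and 2, and the difference was 1.16 ± 0.56 (limma adjusted p = 0.189). For Itgb7, a gut-homing integrin subunit, it was 0.96 ± 0.45 (adjusted p = 0.18) and for Cd44, which binds hyaluronan, -1.34 ± 0.76 (adjusted p = 0.244). Of 8 measured homing and adhesion genes 0 passed, against 5 of all 57 genes (8.77%). Their median was 0.76, against -0.18 over all genes.

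H2-Ab1, a chain of MHCII, had scaled counts of 7372, 122613, 75461 and 129780 in manipulated-donor libraries, against 2148, 653, 37462, 65272 and 31223 in manipulated-recipient libraries. Libraries 2 to 4 of the manipulated-donor group were above every manipulated-recipient library and library 1 was not. The difference was 2.43 ± 1.33 (limma adjusted p = 0.244). It was 3.39 without library 1 (adjusted p = 0.0919) and 3.95 without manipulated-recipient libraries 3 and 4 (adjusted p = 0.052). Siglec1, which encodes the macrophage lectin CD169, had scaled counts of 991, 13411, 4722 and 3135 in manipulated-donor libraries, against 72.1, 103, 3521, 8189 and 63.5 in manipulated-recipient libraries (3.13 ± 1.76, adjusted p = 0.244, and 3.77 with adjusted p = 0.178 without library 1). Its high values among manipulated-recipient cells were those of libraries 3 and 4, without which the difference was 5.57 (adjusted p = 0.0318).

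Of the 10 measured macrophage markers 0 passed, against 5 of all 57 genes (8.77%). Their median was 0.62, with a summed scaled count of 69255 to 238870 in manipulated-donor cells and 29583 to 164969 in manipulated-recipient cells. Of the 5 measured Ly6C-high monocyte markers 0 passed, with a median of -0.11 and sums of 150572 to 253937 and of 114311 to 313098, in the same order of groups. Ly6c1, a monocyte surface antigen of this list, ranged from 1238 to 16446 in manipulated-donor cells and from 737 to 57909 in manipulated-recipient cells (-0.86 ± 1.11, adjusted p = 0.573), and without manipulated-recipient libraries 3 and 4, which held its lowest values, the difference was -2.94 (adjusted p = 0.0318). The transcription factor list had 0 of 9 genes called and a median of 0.33, with Irf4 at 0.70 ± 0.52 (adjusted p = 0.459) and Irf5 at 0.50 ± 0.32 (adjusted p = 0.342). Among costimulation genes 0 of 3 passed, with Cd80 at -0.49 ± 0.48 (adjusted p = 0.558) and Cd86 at -0.06 ± 0.51 (adjusted p = 0.9).

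**Figure D3:**
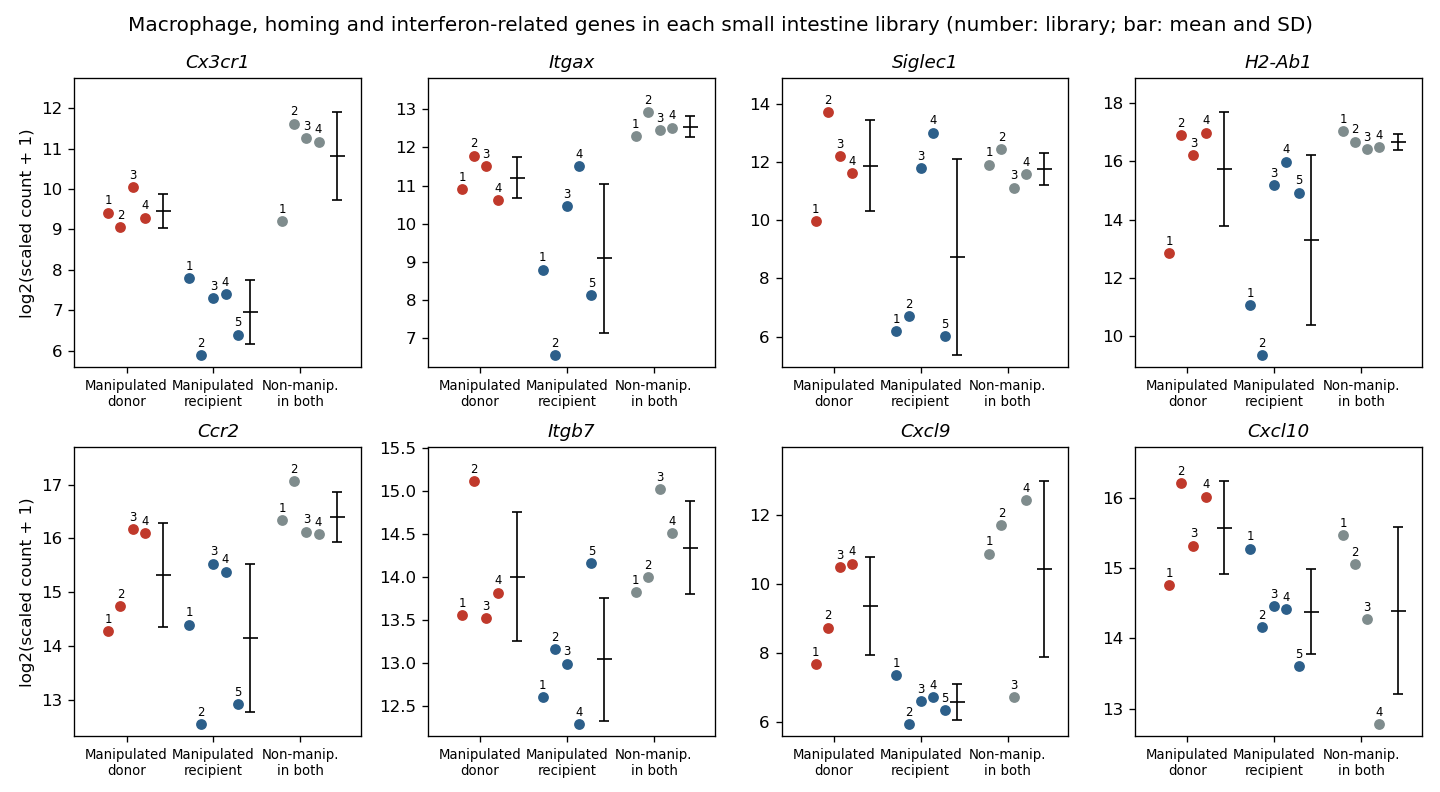
Log2 level (y axis, log2 of the scaled count plus 1) of 8 macrophage, homing and interferon-related genes in each small intestine library of manipulated-donor cells (red, n = 4), manipulated-recipient cells (blue, n = 5) and non-manipulated controls (grey, n = 4). Points are libraries with their number and bars are mean and SD; blue libraries 3 and 4 lie above the other blue libraries for Itgax, Siglec1, H2-Ab1 and Ccr2.

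The manipulated-donor cells were then set against cells that met no inflammation in either mouse. Of the 57 genes 0 passed the test between manipulated-donor cells and non-manipulated controls (0% of the genes tested, limma), and 5 had an unadjusted p under 0.05. With edgeR 1 gene passed, Retnla, which encodes a secreted product of alternatively activated macrophages (log2 difference -5.25, adjusted p = 0.00766). That difference came from 1 library: Retnla was at 33.1 to 62.7 in manipulated-donor cells, against 40.5, 37.3, 53.1 and 7363 in controls, and without control library 4 it was 0.17 (adjusted p = 0.93). With DESeq2 4 genes passed, Ccl7 (4.54, adjusted p = 0.00209), Il23a (2.97, adjusted p = 0.00332), Il6 (3.05, adjusted p = 0.00209) and Tnf (1.59, adjusted p = 0.0302). Without manipulated-donor library 1 DESeq2 called 0 genes, with differences of 0.63 for Ccl7, 1.55 for Il23a, -0.21 for Il6 and 1.57 for Tnf (adjusted p = 0.313 for Tnf). The same controls served for manipulated-recipient cells, in which 19 genes (33.3% of those tested) differed from them, 11 higher and 8 lower. For Arg1 the log2 difference from these controls was 0.51 ± 1.17 in manipulated-donor cells and 6.44 ± 1.11 in manipulated-recipient cells. For Ccl7 it was 1.91 ± 1.42 in manipulated-donor cells and 7.64 ± 1.35 in manipulated-recipient cells, for Il6 0.90 ± 0.81 and 4.63 ± 0.77, for Cxcl1 0.70 ± 0.48 and 3.73 ± 0.45, and for Ccl2 -0.08 ± 0.69 and 2.64 ± 0.66, in the same order of groups. Library 1 raised each of these values in manipulated-donor cells. Without it the difference from controls was -0.62 for Arg1, 0.41 for Ccl7, -0.41 for Il6, 0.02 for Cxcl1 and -0.67 for Ccl2, so that Arg1 and Il6 changed sign, and 0 genes passed the limma test.

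For 4 genes (7.02% of the 57) the manipulated-donor libraries did not overlap with the non-manipulated controls. Tnf, at 56354 to 91476, was above the controls at 15799 to 42355 (log2 difference 1.49 ± 0.55, limma adjusted p = 0.519, and 1.43 without library 1), and Cd80, at 22935 to 34213, was above the controls at 7618 to 20625 (1.27 ± 0.50, adjusted p = 0.519, and 1.16 without library 1). For both genes libraries 2 to 4 shared the higher level with library 1. Itgax, at 1567 to 3522, was below the controls at 5027 to 7799 (-1.34 ± 0.86, adjusted p = 0.714), as was the gut-homing receptor gene Ccr9 (-0.63, adjusted p = 0.592).

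Each manipulated-donor library was placed between the reference groups. Over the 5 genes past the threshold, library 1 lay within the range of the manipulated-recipient libraries for 2 genes (Il6 and Ccl7) and within that of the controls for 0. Libraries 2, 3 and 4 lay within the manipulated-recipient range for 0 genes and within the control range for 2, 2 and 1. These 5 genes were chosen for differing between these same libraries, so low counts within the manipulated-recipient range follow in part from that choice. Over the 19 genes called between manipulated-recipient cells and controls, library 1 was nearer to the manipulated-recipient mean for 15 genes, and libraries 2, 3 and 4 for 3, 6 and 4. Library 1 lay beyond every control library, towards the manipulated-recipient mean, for 16 of these genes. Libraries 2, 3 and 4 did so for 6, 11 and 10. The median position on the way from the control mean to the manipulated-recipient mean was 73.8% in library 1 and -1.3%, 27.6% and 18.1% in libraries 2, 3 and 4.

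**Figure D4:**
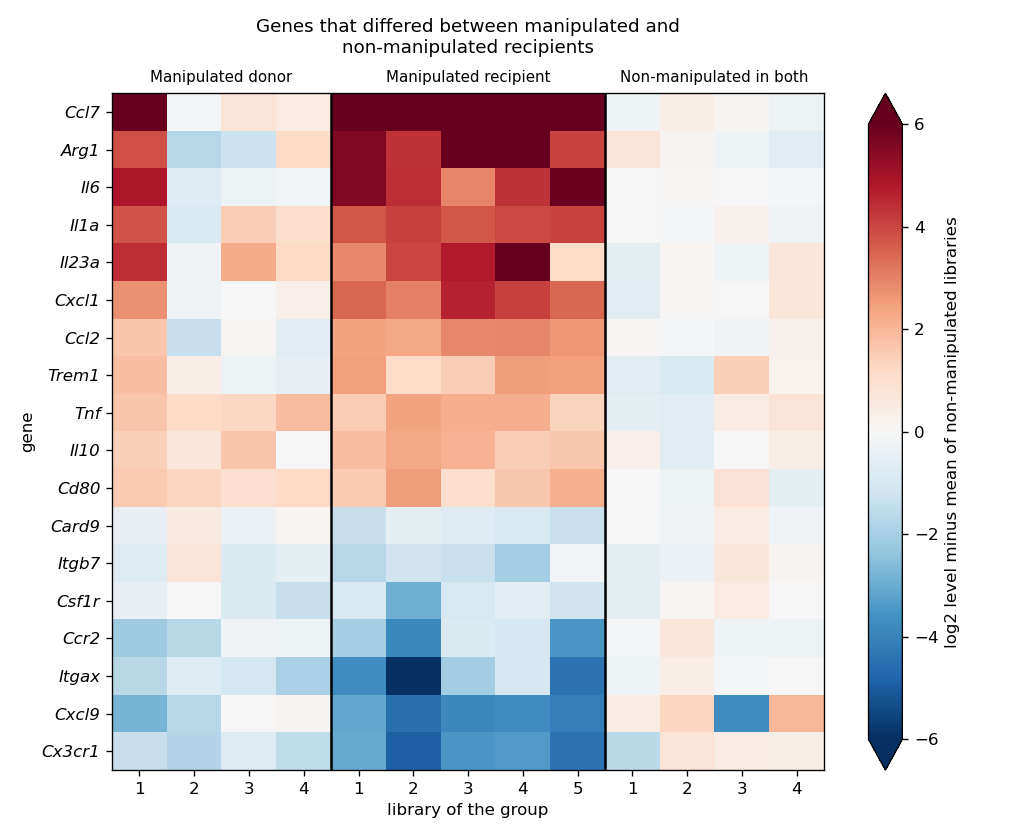
Log2 level minus the mean of the non-manipulated controls (colour, limited to 6 either way) of 18 of the 19 genes that differed between manipulated-recipient cells and those controls (rows), in each library (columns) of manipulated-donor cells, manipulated-recipient cells and controls. Column 1 of the manipulated-donor cells has the colours of the manipulated-recipient columns for most genes, whereas columns 2 to 4 are paler for most genes.

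Not overlapping between manipulated-donor and manipulated-recipient cells were 6 of 57 genes (10.5%), Arg1, Cxcl1 and Ccl2 on the lower and Cx3cr1, Card9 and Cxcl9 on the higher side. Without library 1, which was singled out for its nearness to manipulated-recipient cells, this number was 18 (31.6%). All 5 genes past the threshold also passed without any 1 library of either group. Without manipulated-recipient library 4 alone Itgax was added (2.72, adjusted p = 0.0195), and without library 5 alone Il23a (-2.61, adjusted p = 0.0356). Some libraries were deposited as plain counts (manipulated-donor libraries 1 to 3 and manipulated-recipient libraries 1 and 2) and the others as counts multiplied by a constant. Of the manipulated-donor libraries only library 4 was multiplied, so for the multiplied libraries only the size of the difference is given. Libraries of other organs stayed in these fits and contributed to the spread. Within the plain and the multiplied libraries the difference was -4.66 and -6.27 for Arg1, -2.41 and -3.75 for Cxcl1 and -3.74 and -4.54 for Il6. These 3 genes were past the limma threshold within the plain libraries. The difference was -2.26 and -3.48 for Ccl2 and -4.72 and -7.50 for Ccl7, in the same order (limma adjusted p = 0.181 for either gene within the plain libraries). Without manipulated-recipient libraries 3 and 4, 11 genes passed the test, 7 lower and 4 higher. They included the same 5, together with Ly6c1 and Tlr4 on the lower side and Itgax, Ccr2 and Siglec1 among those on the higher side.

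**Figure D5:**
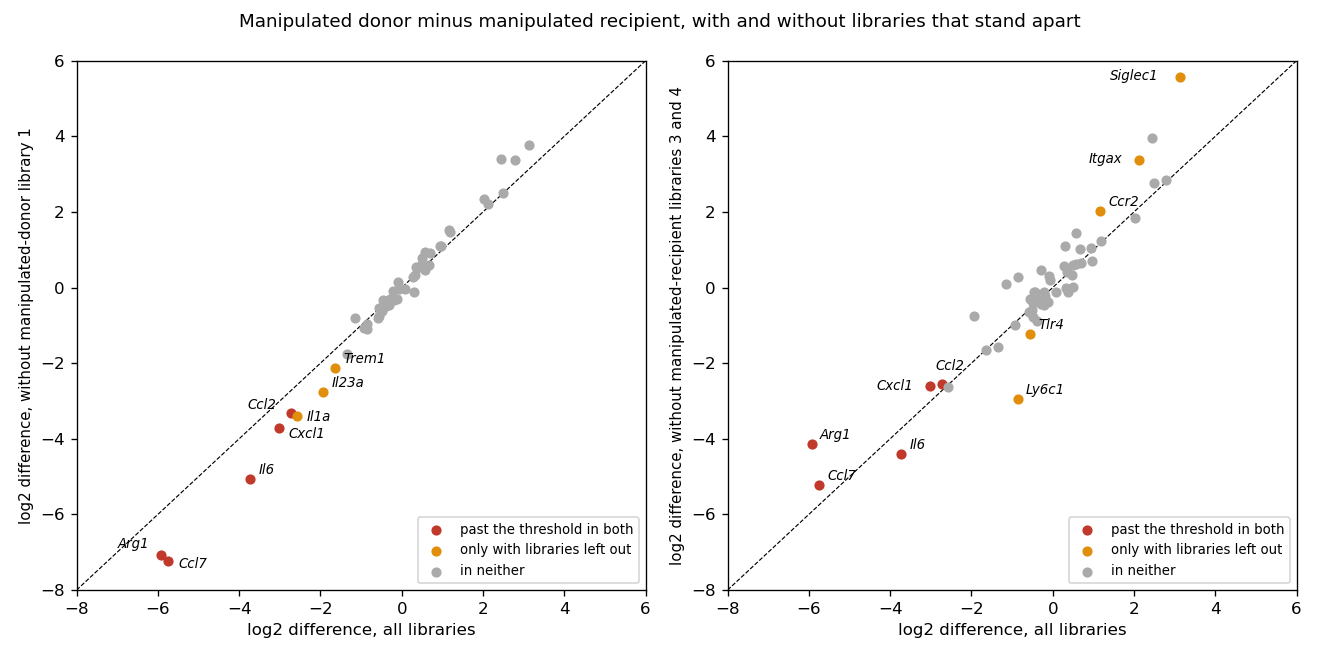
Log2 difference, manipulated donor minus manipulated recipient, with all libraries (x axis) and without manipulated-donor library 1 (left, y axis) or without manipulated-recipient libraries 3 and 4 (right, y axis), for 55 of the 57 genes. Points are genes and the dashed line marks equal values; red genes pass the test both ways, and orange ones, 3 on the left and 5 on the right, pass it only with libraries left out.

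Primary bone marrow monocytes were in 1 library of a manipulated mouse and 2 of non-manipulated mice, and they were not tested against each other. The labels do not say whether they were the input of these transfers. Arg1 was at 62.0 in monocytes of the manipulated mouse, against 87.2 and 144 in those of non-manipulated mice, and Cxcl1 at 92.4, against 156 and 108. Il1a was at 96.8, against 101 and 61.2, all far below every small intestine library. Counts of Ccl7 and Il6 were under background in all 3 libraries. For other genes the 2 libraries of non-manipulated mice lay far apart, so these monocytes give no single starting level. Cx3cr1 was at 4675 and 122 in them, Siglec1 at 7804 and 178, Cxcl10 at 24335 and 173 and H2-Ab1 at 9979 and 1713. In the manipulated mouse these genes were at 341, 286, 1189 and 2697, in the same order.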

How the data were processed

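Per the labels and methods, 100 donor monocyte-derived cells per library were sorted 1 day after transfer, reverse transcribed, pre-amplified and hybridised to nCounter probes, which address single transcripts without alignment. The authors deposited raw barcode counts for 15 libraries and, for 18, a signal, counts multiplied by a lane constant of up to 4. The constant was taken as the largest candidate that made every gene value of the library whole (tolerance 0.02). Whole numbers for 100% of values follow from that choice. The deposited series matrix holds a score, the authors' normalised values, used as an alternative only.

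Counts were divided by the geometric mean of Actb, Gapdh and Rpl19 and tested as log2(scaled count + 1). A gene had to exceed the mean plus 2 SD of the negative controls in at least 2 libraries, as all 57 did. Differences were tested two-sided with limma 3.58.1 in R 4.3.3, in 1 fit over all 33 libraries with a mean for each of 11 groups, adjusted over 57 genes at 0.05. The procedure was tested on simulated data. Each library carries a mouse number in its label, and whether a library pools animals is not given in the sources used here, so p-values describe variation among these libraries.

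Genes named in full were those past the threshold, up to 3 further members of each list and genes the study discusses. Results of 2 of the 57 genes are not reported here singly, though the fit and the counts include them. Members and lists were chosen with earlier results of these data known. Of 72 gene names 69 were matched to RefSeq by transcript and 3 by symbol. Alternatives covered scaling, background, filters, edgeR 4.0.16, DESeq2 1.42.0, the methods' t-test, blocks and left-out libraries. The distances and positions of single libraries, the omission of manipulated-recipient libraries 3 and 4 together, and the split by lane constant were chosen after seeing the data. Leaving out each library in turn was planned, but the repeated report of values without manipulated-donor library 1 was chosen after seeing the data.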

Additional observations from a re-analysis of the deposited data

Results flagged for a closer look

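In a group of 4 or 5 libraries, 1 library lay far from the rest by Dixon's test at the 95% level in 3 of 96 combinations of gene and group, a test that chance alone passes in about 1 of 20. These combinations cover 32 named genes, and the other genes were not searched. Manipulated-donor library 1 was high for Ccl7, at a log2 level of 12.87, against 6.39 to 7.31 in the other 3 libraries (gap of 0.858 of the range). It was also high for Il6, at 11.04, against 5.40 to 6.06 (0.885 of the range). Among manipulated-recipient cells library 2 was high for Cd14, at 17.35, against 16.64 to 16.84 (0.724 of the range). Ccr8, a chemokine receptor gene that was not analysed because it has values in only 4 libraries of the series, had 31 counts in manipulated-donor library 4, above the background of 20.1.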

How the results depend on the processing

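Between manipulated-donor and manipulated-recipient cells, 5 to 8 genes passed when each library was left out in turn, against 5 with all libraries. The count was 6 with only the 2 groups in the fit (4 lower and 2 higher) and 8 with only small intestine libraries (6 and 2). It was 11 with library weights (7 lower and 4 higher) and 9 with DESeq2 (6 and 3). With edgeR it was 2 on house-keeping factors (Arg1 and Cxcl1, both lower) and 5 with TMM (3 lower and 2 higher). With a lane constant block 7 genes passed (5 lower and 2 higher). The methods' t-test gave 15 before adjustment (9 lower and 6 higher) and 1 after (Cx3cr1, higher). Without manipulated-recipient libraries 3 and 4 the count was 11 (7 lower and 4 higher, chosen after seeing the data). Of 992 values of single genes under an alternative, 928 kept their direction and their side of the threshold. Only 5 of the 32 genes counted here passed as reported, so most of these values were of genes that had not passed. Of the 5 genes, edgeR kept 2 on house-keeping factors and 3 with TMM, and the methods' t-test kept 0 after adjustment.
With edgeR on house-keeping factors the adjusted p was 0.0565 for Ccl2, 0.168 for Ccl7 and 0.167 for Il6. With edgeR and TMM it was 0.125 for Ccl7 and 0.107 for Il6, and with only the 2 groups in the fit 0.0614 for Il6. The median difference of all genes was -0.39 without Rpl19, -0.03 without Actb and -0.07 with total counts, against -0.18 as reported. Against non-manipulated controls the count of 0 became 1 with edgeR under either scaling, 4 with DESeq2 and 5 with the unadjusted t-test, and stayed at 0 in limma without each library in turn. Chosen after seeing the data, the omission of manipulated-donor library 1 gave 0 with DESeq2 and 1 with edgeR, and that of control library 4 gave 0 with edgeR.
Mouse numbers were checked as pairs. Same-numbered manipulated-donor and manipulated-recipient libraries deviated from their group means with r = 0.12, 0.003, 0.115 and 0.173, so the numbers were not taken as pairs. Manipulated-donor library 4 is mouse 4 in its title but a second replicate 3 in its description; with manipulated-recipient library 3 it had r = 0.367. With a replicate block 6 genes passed, the 5 and Il23a (-2.61, adjusted p = 0.0439), and 0 against controls.
Small differences that passed no test changed sign. Cd86 was 0.04 with total counts, 0.09 without Actb, 0.03 with series matrix values, 0.02 with edgeR and TMM, 0.16 with a lane constant block, 0.20 without manipulated-recipient libraries 3 and 4, 0.30 within plain counts and -0.35 to 0.12 with each library left out. Mrc1 (0.10) and Vegfa (0.29) turned without manipulated-recipient libraries 3 and 4, and within plain counts Vegfa (0.85) and Ccl22 (-0.24) did. The cause was not tested.
Of the 5 genes, library 1 lay within the manipulated-recipient range for 5 with series matrix values and 3 without Actb. Library 2 lay within the control range for 1 with total counts or without Rpl19, library 3 for 1 without Rpl19, and library 4 for 2 with TMM, without Actb, without Gapdh or without Rpl19 and for 4 with series matrix values.
Low counts limit Il6, at 31 counts under a background of 46.0 in manipulated-donor library 2.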
